A study of Arabidopsis thaliana with 64 samples.

Results

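The seedlings compared here were 2 pairs of F4 lines of *Arabidopsis thaliana*, L1-1 and L1-2 against L2-1 and L2-2, at 15 days after sowing (DAS). They were chosen by their labels and no measured value, and gave 8 of the 64 libraries of the series, 4 of L1 and 4 of L2. The series concerns hybrid mimics, which are lines taken by selfing from a hybrid and kept for hybrid-like growth. All 4 lines descend from hybrids of the accessions C24 and Landsberg erecta (Ler), and no treatment was given. Each line had pools A and B, each made of 5 plants, and the RNA came from the whole aerial part of the seedling. The 8 pools belong to batch 1 of the experiment, grown under 1 kind of light tube. The labels do not say that lines sharing a first number descend from 1 plant. The pools of a line are separate pools of plants of that line, so p-values measure the spread between pools and lines of this experiment. Each side had only 2 lines, so the 4 libraries of a side are not 4 independent lines.

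An F4 plant carries a mosaic of the genomes of both parents. After repeated selfing most loci are fixed for 1 parental allele, and different lines fix different blocks. A gene with allele-dependent expression, or one that 1 parent lacks, then takes the level of the parent whose block the line holds. A line whose plants still segregate, or a pool of plants with different alleles, gives a level between the parents. In *Arabidopsis*, C24 and Ler are known to differ in flowering time regulators, in glucosinolate side chain enzymes and in clusters of immune receptor genes.

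The 8 libraries held 67723294 to 86255142 counts and 31133 to 31401 detected genes. Chloroplast and mitochondrial genes took 0.0247% to 0.0769% of the counts. Levels are given as CPM, the usual count share of a gene in its library, scaled over all 36 libraries at 15 DAS. They compare libraries for 1 gene and not genes with each other. Green leaf markers summed to 20348 to 27117 CPM in L1 and 20972 to 26155 CPM in L2, so green leaf tissue was present in both sets of lines. These markers cannot show whether root tissue was present too. Because these are whole shoots, fewer cells of a type and less RNA per cell cannot be told apart. The reads were mapped to the Columbia reference, so a weakly expressed parental allele and one whose sequence is diverged or missing cannot be told apart either.

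Of 29208 tested genes, 200 were higher in L1 than in L2 (0.685%) and 378 were lower (1.29%), a total of 578 (1.98%) by edgeR's quasi-likelihood test at a Benjamini-Hochberg adjusted p below 0.05. Of the 578 called genes, 249 differed by at least 1 on the log2 scale (43.1%). In all 578 the 4 L1 and the 4 L2 libraries did not overlap, and this held for 2654 of all tested genes (9.09%). Calls were made in 475 of 25796 protein coding genes (1.84%) and in 82 of 2384 pseudogenes (3.44%). With the pool letter as a block the counts were 347 and 548. With the pools of each line summed, 2 lines against 2, 297 genes were called, and 222 of these were among the 578. The count of 578 depends on single libraries. It was 318 without L1-1 A, 352 without L1-2 A, 357 without L1-2 B and 319 without L2-2 A.

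The lines of a pair were compared with each other in the same 8 libraries, to show how far apart lines with the same first number are. L1-1 and L1-2 differed in 8 genes (0.0274%), with 580 genes (1.99%) below an unadjusted p of 0.05. L2-1 and L2-2 differed in 94 genes (0.322%), with 1489 genes (5.1%) below that value. The 4 comparisons of an L1 line with an L2 line gave 273 (0.935%) for L1-1 and L2-1, 315 (1.08%) for L1-1 and L2-2, 214 (0.733%) for L1-2 and L2-1 and 299 (1.02%) for L1-2 and L2-2. These tests share libraries and their error comes from few pools, and with the spread estimated over all 36 libraries the L1 pair differed in 57 genes and the L2 pair in 262. The count of 8 was 15 with the pool letter as a block and 1 to 5 without any 1 of the 8 libraries. The count of 94 was 26 without L2-1 A, 39 without L2-1 B, 42 without L2-2 A and 51 without L2-2 B.

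The called genes were unevenly spread over the chromosomes. Chromosome 5 held 123 higher and 200 lower genes in L1, together 4.90% of its 6590 tested genes and 55.9% of all calls. Chromosome 1 held 31 higher and 101 lower genes, 1.74% of its 7591 tested genes. Chromosomes 2, 3 and 4 held 0.592%, 0.879% and 1.01% of their tested genes. The plot of calls by chromosome shows the excess on chromosome 5 and, beside it, the parental side on which L1 lay.

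**Figure D1:**
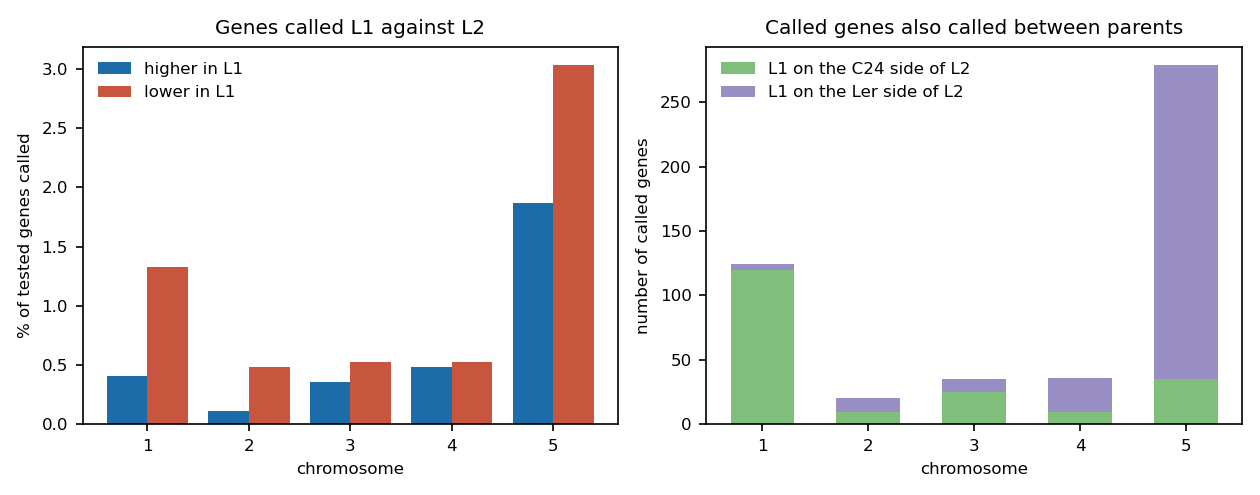
Left, the percentage of tested genes on each nuclear chromosome that were called higher or lower in L1 than in L2 at 15 DAS. Right, the number of called genes, also called between the parents, at which L1 lay on the C24 or the Ler side of L2; on chromosome 1 the C24 side held 120 of 124 genes and on chromosome 5 the Ler side held 244 of 279.

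Most of the called genes also differed between the parents. Between 6 pools of C24 and 4 pools of Ler, 2 pools of each being the smallest seedlings of their parent, 8909 of 30207 tested genes were called by edgeR (29.5%). Ler pools A and B of batch 1 were left out of the Ler level throughout. Their values are given for some, but not all, of the genes at which they lie far from it. Among the 578 genes that separated L1 from L2, 496 were called between the parents (85.8%), against 8686 of all 29208 genes tested in both comparisons (29.7%). L1 was on the C24 side of L2 at 198 of the 496 genes and on the Ler side at 298. On chromosome 1, L1 was on the C24 side at 120 of 124 genes (96.8%). On chromosome 5 it was on the Ler side at 244 of 279 genes, and the C24 side held 12.5%. On chromosome 4 the C24 side held 9 of 36 genes, on chromosome 2 it held 9 of 20, and on chromosome 3 it held 25 of 35.

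A gene's position between the parents is 0 at the mean Ler level and 1 at the mean C24 level, and it was computed on linear CPM for 395 genes that separate the parents at least 4-fold. Positions were described and not tested. In the 5 Mb windows of chromosome 1 from 15 to 30 Mb, the median position was 0.94 to 1.04 in both L1 lines and 0.47 to 0.62 in both L2 lines. On chromosome 5 from 10 to 15 Mb it was 0.003 in L1-1, 0.01 in L1-2, 0.38 in L2-1 and 0.98 in L2-2. Both L1 lines were thus at the Ler level there, L2-2 at the C24 level and L2-1 in between.

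The L1 lines were not alike on every chromosome. On chromosome 3 from 5 to 20 Mb, the window medians were 0.89 to 1.04 in L1-1 and 0.49 to 0.70 in L1-2. L2-1 had medians of 0.02 to 0.09 there and L2-2 had 0.56 to 0.68. L1-1 was at the C24 level and L2-1 at the Ler level, with L1-2 and L2-2 between them. In the first 10 Mb of chromosome 2, L2-1 lay at 0.93 to 0.99 and L1-2 at 0.02 to 0.04. From 10 to 15 Mb of that chromosome all 4 lines lay at 0.98 to 1.00, and from 20 to 25 Mb of chromosome 3 all lay at -0.002 to 0.05.

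L1-1 was at the C24 or the Ler level at most separating genes, with 19.0% between the parents. L1-2 had 32.4% between, L2-1 48.9% and L2-2 52.7%. The plot of positions by line and chromosome shows these shares. On chromosome 1 the share between the parents was 78.4% in L2-1 and 67.0% in L2-2 on chromosome 1, against 26.8% in L1-1 and 33.0% in L1-2. The labels do not say whether the plants of a pool shared a genotype.

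**Figure D2:**
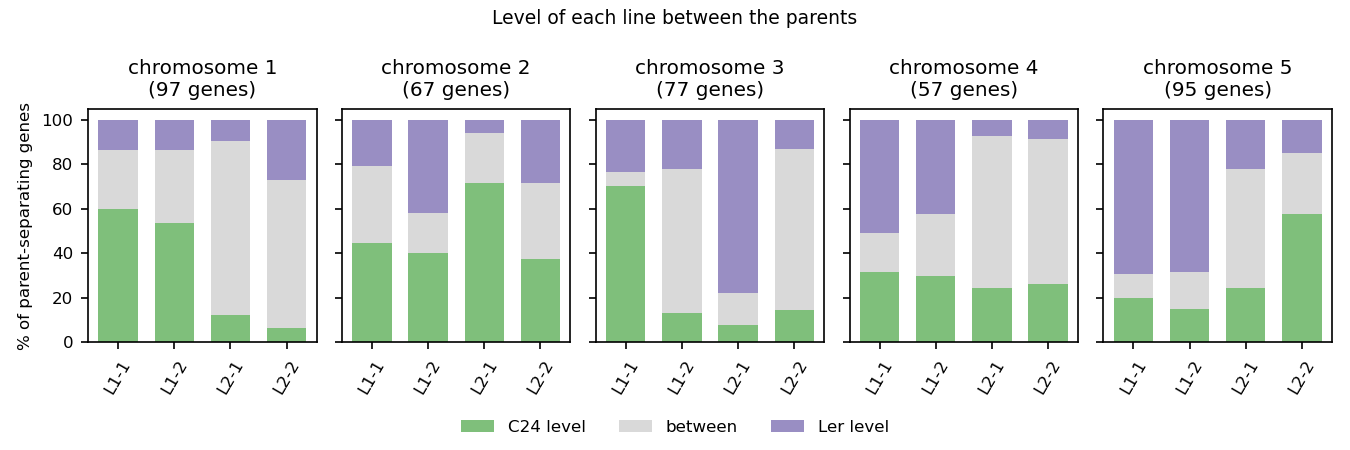
Stacked percentages of the parent-separating genes of each chromosome at which a line was at the C24 level, between the parents or at the Ler level at 15 DAS. L1-1 and L1-2 were at the Ler level at 69.5% and 68.4% of those on chromosome 5, and L2-2 was at the C24 level at 57.9%.

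Both L1 lines were at the Ler level and both L2 lines at the C24 level at 12 of the 395 genes, and the reverse was seen at 3 genes. With the parents of batch 1 only, these counts turned to 3 and 8, and at a parental log2 difference of at least 4 they were 2 and 0. All of these genes, 12 and 3, were called. Both pairs were at the C24 level at 35 genes and at the Ler level at 15 genes. The L1 lines fell in different classes at 115 genes and the L2 lines at 198.

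The densest block of calls was on chromosome 5 between 10 and 11 Mb of the reference. There 33 of 115 tested genes were called (28.7%), all of them lower in L1. They comprised 21 pseudogenes, 11 protein coding genes and 1 gene of another or no annotated type, and all 33 were higher in C24 than in Ler. The 4 L1 libraries held no count at all for 4 of them. At 28 DAS 16 of the 33 were tested, and 8 were again called lower in L1. On chromosome 4 between 4 and 5 Mb, 5 of 31 tested genes were called (16.1%).

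The strongest differences concerned transcripts nearly absent from L1. The pseudogene AT5G28145 had 2 counts in the 4 L1 libraries together and 830 in the 4 L2 libraries. The scaled L2 to L1 ratio was 441 (95% exact binomial interval 122 to 3651, counting error only). The pseudogene AT4G07874 had 5 and 1398 counts, a ratio of 297 (127 to 917). The noncoding AT5G34871 had 5 and 692 counts, a ratio of 147 (62.8 to 455). C24 pools held 2.29 to 9.08 CPM of these 3 genes and Ler pools at most 0.0854 CPM, but the left-out Ler pools A and B of batch 1 had 1.87 and 0.815 CPM of AT5G28145. In all, 9 called genes had at most 3 counts over the 4 L1 libraries, 7 of them with none, and no called gene was this low in L2. Among the 7 was ACS3, named after the aminocyclopropane carboxylate synthase family and chosen here after its values were seen. Whether ACS3 makes a working enzyme was not tested. With 143 counts in L2, it was at least 50.7-fold higher there, taking 3 counts over the L1 libraries as the floor.

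The pseudogene AT2G15160 lay on chromosome 2 and had 0.102, 0.118, 0.124 and 0.081 CPM in L1-1 A, L1-1 B, L1-2 A and L1-2 B. It had 11.8, 6.59, 17.64 and 16.3 CPM in L2-1 A, L2-1 B, L2-2 A and L2-2 B. All L2 pools were above all L1 pools, and the log2 difference was -6.92 ± 0.38 (SE, n = 4 and 4, edgeR adjusted p = 5.16e-05). AT5G28350, annotated as a RIC1-like guanine exchange factor, had 0.255 to 0.496 CPM in L1, 13.3 and 12 CPM in L2-1, and 33.5 and 33.6 CPM in L2-2 (log2 difference -5.76 ± 0.46, edgeR adjusted p = 0.000455). Its L2-2 pools were near the C24 pools at 39.4 to 49.7 CPM and its L2-1 pools lay lower. The 4 Ler pools of the range had at most 0.590 CPM, and the Ler pools A and B of batch 1, left out of it, had 22.7 and 14.2 CPM.

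The other genes among the 10 largest negative differences were apart in the same way. The noncoding AT5G48412 had 0.567 to 0.689 CPM in L1 and 23.4 to 34.2 CPM in L2 (-5.51 ± 0.17, edgeR adjusted p = 1.15e-06). AT5G48510, a BTB/POZ domain protein, had 0.0347 to 0.130 CPM in L1 and 1.9 to 2.33 CPM in L2 (-4.58 ± 0.25, edgeR adjusted p = 4.72e-05). For both, L1 was at the level of the 4 Ler pools and L2 at or near the C24 level. The left-out Ler pools A and B of batch 1 had 11.96 and 12.07 CPM of AT5G48412, and 0.961 and 0.498 CPM of AT5G48510. The uncharacterized AT1G58235 on chromosome 1 had 0.778 to 1.05 CPM in L1 and 10.1 to 35.2 CPM in L2 (-4.44 ± 0.42, edgeR adjusted p = 0.00104), with L1 at the C24 level. TGG2 and AOP3, also among the 10, are described with their pathway.

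Among genes higher in L1, a neighbouring pair on chromosome 5 stood out by its small spread. AT5G54780, a Ypt/Rab-GAP domain protein, had 65.4, 49.6, 57.8 and 50.5 CPM in the L1 pools and 15.3, 13.7, 13.9 and 15.1 CPM in the L2 pools. Every L1 pool exceeded every L2 pool, and the log2 difference was 1.95 ± 0.10 (edgeR adjusted p = 3.94e-05). AT5G54790, a CTD small phosphatase-like protein, had 15.7, 11.2, 12.9 and 11.3 CPM in L1 and 0.873, 0.977, 1.05 and 1.24 CPM in L2. The groups were again apart, by 3.63 ± 0.16 on the log2 scale (edgeR adjusted p = 1.35e-05). For both genes the L1 pools lay at the Ler level and the L2 pools at the C24 level.

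NMNAT, the nicotinate and nicotinamide mononucleotide adenylyltransferase of NAD synthesis, had 7.40, 6.58, 7.89 and 6.17 CPM in L1 and 2.42, 1.38, 2.26 and 1.62 CPM in L2. The L1 pools were all higher (log2 difference 1.87 ± 0.19, edgeR adjusted p = 0.00138). AT5G59770, a protein tyrosine phosphatase-like (PTPLA) gene, had 16.6 to 22.4 CPM in L1 and 4.50 to 5.03 CPM in L2 (2.03 ± 0.11, edgeR adjusted p = 5.58e-05). AT3G16750, uncharacterized and on chromosome 3, had 11.9 and 14.5 CPM in L1-1, 6.98 and 8.02 CPM in L1-2, and 1.18 to 1.57 CPM in L2 (2.84 ± 0.24, edgeR adjusted p = 0.000654).

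ARGAH2, an arginase that responds to jasmonate, had 48.5, 17.35, 64.2 and 14.5 CPM in L1 and 6.30, 3.63, 4.91 and 4.01 CPM in L2. The A pools of L1 were higher than its B pools, and no L1 pool reached down to L2 (2.94 ± 0.49, edgeR adjusted p = 0.0171). C24 pools had at most 0.704 CPM and Ler pools 13.0 to 97.2 CPM. The call was lost without L1-1 A, L2-1 B, L2-2 A or L2-2 B, with differences of 2.77 to 2.96 and edgeR adjusted p = 0.05004 to 0.0653. AT1G52905, AT5G60250 and AT5G26622 also belonged to the 10 largest positive differences (5.44, 2.13 and 2.22). The L1 lines were unlike for AT1G52905, with 0.893 and 1.84 CPM in L1-1 and 11.1 and 6.58 CPM in L1-2. L2 pools had at most 0.200 CPM of it. The call of AT1G52905 was lost without L2-1 A, L2-2 A or L2-2 B (5.23 to 5.45, edgeR adjusted p = 0.0605 to 0.0672). That of AT5G60250 was lost without L1-1 A, L2-1 B, L2-2 A or L2-2 B (2.02 to 2.18, edgeR adjusted p = 0.0585 to 0.0662). The AT5G26622 call was lost with the pools of each line summed and without line L1-1 or L1-2 (edgeR adjusted p up to 0.114).

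**Figure D3:**
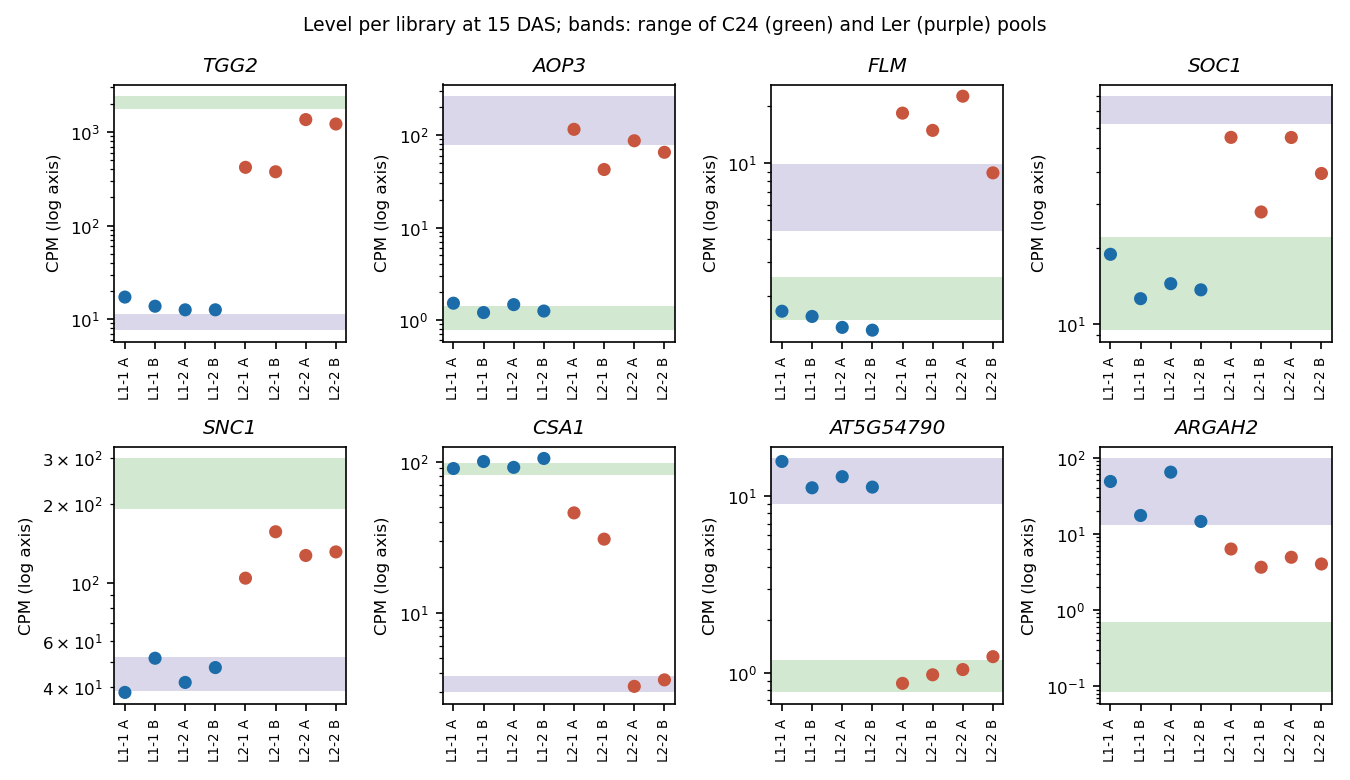
CPM on a log axis in each of the 8 libraries (blue L1, red L2) for TGG2, AOP3, FLM, SOC1, SNC1, CSA1, AT5G54790 and ARGAH2, with green and purple bands for the range of the C24 and Ler pools. L1 pools of TGG2 sit at 12.6 to 17.2 CPM near the Ler band, while CSA1 shows both L2-2 pools in the Ler band and both L2-1 pools above it.

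Aliphatic glucosinolates are sulfur-rich defence compounds made from methionine, and myrosinases cut them when tissue is wounded. Of 28 tested genes of their synthesis, none was higher and 3 were lower in L1, with a median log2 difference of 0.08. Over all tested genes 0.685% were higher, 1.29% were lower and the median was 0.006. AOP3, which turns methylsulfinylalkyl side chains into hydroxyalkyl ones, had 1.52, 1.2, 1.47 and 1.25 CPM in L1 and 115, 42.4, 86.7 and 65.1 CPM in L2. The pools were far apart (-5.83 ± 0.32, edgeR adjusted p = 5.16e-05), with L1 at the level of C24 (0.776 to 1.41 CPM) and L2 below or within the Ler range (78.8 to 263 CPM). AOP2, its neighbour, which makes alkenyl side chains, had 275 to 339.5 CPM in L1, 100.1 and 255 CPM in L2-1 and 109 and 199 CPM in L2-2. It did not pass the test (0.90 ± 0.28, edgeR adjusted p = 0.186). AOP2 did pass with DESeq2, in the fit over all 36 libraries and with the pools of each line summed. AOP2 and AOP3 are similar in sequence, so the split of reads between them is uncertain.

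MAM1, the methylthioalkylmalate synthase of side chain elongation, had 124, 170.4, 164 and 161 CPM in L1 and 230.4, 305, 275 and 296 CPM in L2. All L1 pools were lower (-0.83 ± 0.13, edgeR adjusted p = 0.0110), a call lost without line L1-1, L1-2 or L2-2 (edgeR adjusted p up to 0.111). GS-OX3, a monooxygenase that oxidises the side chain sulfur, had 29.7 to 34.5 CPM in L1 and 40.6 to 51.8 CPM in L2 (-0.50 ± 0.09, edgeR adjusted p = 0.0317). This call was lost without any of L1-1 A, L1-1 B, L1-2 A, L1-2 B, L2-1 A or L2-1 B (-0.54 to -0.44, edgeR adjusted p = 0.0600 to 0.0996). It was also lost in the fit over all 36 libraries, with the pools of each line summed and without line L1-1, L1-2 or L2-1 (edgeR adjusted p up to 0.342). The regulator MYB28 had 236 to 250.5 CPM in L1 and 279.8 to 323 CPM in L2, and MYB29 had 31.0 to 33.0 and 9.67 to 22.5 CPM. Neither passed (edgeR adjusted p = 0.0988 and 0.0781), although MYB29 did without L2-1 A (1.18, edgeR adjusted p = 0.0411).

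TGG2, 1 of the major myrosinases of the shoot, had 17.2, 13.7, 12.6 and 12.6 CPM in L1. It had 420.0 and 377 CPM in L2-1 and 1361 and 1221 CPM in L2-2. The L1 pools lay near Ler (7.62 to 11.3 CPM) and all L2 pools lay between L1 and C24 (1767 to 2421 CPM), with a log2 difference of -5.91 ± 0.50 (edgeR adjusted p = 0.000612). L2-1 was itself below L2-2 by 1.70 on the log2 scale (edgeR adjusted p = 0.0102). The Ler pools A and B of batch 1, left out of the Ler range, had 1236 and 316 CPM of TGG2. TGG1, the paralogous myrosinase, had 3810 to 5591 CPM in L1 and 1905 to 3261 CPM in L2, and did not pass (0.85 ± 0.20, edgeR adjusted p = 0.0740). It did pass with DESeq2 and in the fit over all 36 libraries. How reads of these paralogous genes were assigned is not given in the sources used here. NSP1, a nitrile-specifier protein that steers glucosinolate breakdown, had 111, 103, 92.8 and 78.3 CPM in L1 and 40.04, 62.3, 47.3 and 63.6 CPM in L2. All L1 pools were higher (0.86 ± 0.17, edgeR adjusted p = 0.0360), but the call was lost without L1-1 A, L1-1 B, L1-2 A, L2-1 A or L2-2 A (0.74 to 0.88, edgeR adjusted p = 0.0604 to 0.119). The NSP1 call was also lost with 1 term per line, with the pools of each line summed and without any 1 line (edgeR adjusted p up to 0.292). TGG2 and NSP1 were the only calls among 7 tested myrosinase and hydrolysis genes (median 0.01), and with the pool letter as a block 2 of the 7 were higher. Calls over all tested genes came to 1.98%.

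Plants take up sulfate, reduce it through APS reductases, and raise marker genes such as LSU and SDI when sulfur runs short. Of 15 sulfate assimilation genes 2 were higher in L1 and none was lower, and 14 had a positive difference, with a median of 0.38. Over all tested genes 0.685% were higher, and 15050 of 29208 had a positive difference. LSU2, a small protein induced by low sulfur, had 34.9, 17.9, 18.3 and 23.7 CPM in L1 and 6.84, 8.48, 4.98 and 7.42 CPM in L2. The pools did not overlap (1.78 ± 0.24, edgeR adjusted p = 0.00649). SDI1, induced by sulfur deficiency and a repressor of aliphatic glucosinolate synthesis, had 62.2, 18.0, 19.0 and 26.0 CPM in L1 and 6.32, 9.93, 6.36 and 9.44 CPM in L2. L1-1 A was the highest pool, and the groups were apart (1.97 ± 0.40, edgeR adjusted p = 0.0447). The call of SDI1 was lost without L1-2 B, L2-1 A, L2-1 B, L2-2 A or L2-2 B (1.87 to 2.09, edgeR adjusted p = 0.0771 to 0.140), and also with the pool letter as a block (1.93, edgeR adjusted p = 0.0530). That of LSU2 was lost without line L2-2 (1.63, edgeR adjusted p = 0.0722).

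LSU1 had 13.8 to 28.9 CPM in L1 and 5.47 to 9.80 CPM in L2 (1.33, edgeR adjusted p = 0.0537). The APS reductases APR1, APR2 and APR3 had differences of 0.59, 0.75 and 0.71 and edgeR adjusted p = 0.25, 0.309 and 0.282. Among genes outside the list and chosen after their values were seen, the vacuolar sulfate exporters SULTR4;1 and SULTR4;2 were higher in L1 (0.63 ± 0.12 and 0.73 ± 0.14, edgeR adjusted p = 0.0386 and 0.0346). SULTR4;2 went to -0.72 at 28 DAS, a change of -1.45 (edgeR interaction test, adjusted p = 0.0273). At 28 DAS no sulfate gene of 14 tested was called and the median was -0.09. The summed level of the root marker list was 333, 128, 176 and 99.4 CPM in L1 and 68.2, 105, 107 and 85.5 CPM in L2, mostly from PYK10. Of 9 root markers 8 had a positive difference (15050 of 29208 over all tested genes), none was called and none was at 0. The part of root RNA in the sulfate result was not tested.

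Windows around the annotated start of LSU2 and SDI1 are shown because these are the called genes of the sulfate list. They run from 250 bases before to 50 after the annotated start in RefSeq's TAIR10.1 assembly, and capitals mark GAGAC on either strand (GTCTC when on the opposite strand), the core of a known sulfur-responsive element. LSU2 lies at chr5:8444052-8444351 and SDI1 at chr5:19807804-19808103, both on the minus strand, and each window holds 2 matches. Both LSU2 matches and the SDI1 match written GAGAC lie in the 50 bases after the annotated start. Only the SDI1 match written GTCTC lies before it.
LSU2: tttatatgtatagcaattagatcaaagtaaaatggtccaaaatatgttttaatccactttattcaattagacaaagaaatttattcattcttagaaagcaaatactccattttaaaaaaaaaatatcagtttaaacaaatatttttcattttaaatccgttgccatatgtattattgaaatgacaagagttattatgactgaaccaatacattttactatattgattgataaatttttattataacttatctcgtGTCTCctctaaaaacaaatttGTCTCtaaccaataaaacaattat
SDI1: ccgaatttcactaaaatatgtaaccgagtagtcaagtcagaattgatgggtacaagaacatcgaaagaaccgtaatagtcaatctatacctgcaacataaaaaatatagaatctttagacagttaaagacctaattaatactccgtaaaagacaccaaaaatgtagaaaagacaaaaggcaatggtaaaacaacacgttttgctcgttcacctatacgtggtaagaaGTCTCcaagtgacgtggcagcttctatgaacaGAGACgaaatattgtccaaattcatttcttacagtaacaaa
GAGAC or its complement was found in 9011 of 27443 such windows (32.8%), so single matches are common. A match describes the letters in the Columbia reference, and the C24 and Ler promoters were not analysed here.

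Jasmonate is made from linolenic acid by LOX, AOS and AOC enzymes in the plastid, and acts in defence and growth. Of 26 tested jasmonate genes 3 were higher in L1 and none was lower (median 0.10), beside 0.685% higher and 1.29% lower over all tested genes. All 3 were enzymes of these early steps. AOS, the allene oxide synthase, had 163, 146, 158 and 128 CPM in L1 and 58.4, 99.4, 76.5 and 71.0 CPM in L2. Every L1 pool was higher (0.97 ± 0.16, edgeR adjusted p = 0.0154). LOX2, the plastid lipoxygenase, had 1119, 864, 950.5 and 918 CPM in L1 and 410.4, 699.8, 470.3 and 434 CPM in L2. Its pools did not overlap either (0.94 ± 0.18, edgeR adjusted p = 0.0330). AOC2, an allene oxide cyclase, had 325, 174, 279 and 183 CPM in L1 and 104, 126, 124 and 87.7 CPM in L2. The A pools of L1 were its highest (1.13 ± 0.22, edgeR adjusted p = 0.0358).

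These 3 calls were sensitive to single pools and to single lines. AOS was lost without L1-1 A, L2-2 A or L2-2 B (0.92 to 0.96, edgeR adjusted p = 0.0520 to 0.0585). LOX2 was lost without any 1 library other than L2-1 B (0.85 to 0.99, edgeR adjusted p = 0.0564 to 0.114). AOC2 was lost without any of L1-1 A, L1-2 A or the 4 L2 pools (0.95 to 1.2, edgeR adjusted p = 0.0605 to 0.0959). Without line L1-1, L1-2 or L2-2 all 3 calls were lost (AOS with edgeR adjusted p up to 0.160). AOC2 was also lost without line L2-1. In a fit with 1 term per line LOX2 and AOC2 were lost (edgeR adjusted p up to 0.261 and 0.210 over all alternatives). The response genes JAZ10 and MYC2 had differences of 0.08 and -0.04 and edgeR adjusted p = 0.924 and 0.956, and VSP2 had 19.5 to 227 CPM in L1 and 12 to 26.8 CPM in L2 (edgeR adjusted p = 0.194). AOC1, a close copy of AOC2, had 55.5 to 101 and 25.5 to 54.3 CPM (edgeR adjusted p = 0.101). Reads shared by these copies may have been split.

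The promoter windows of the called enzymes follow, with capitals for CACGTG, the G-box that MYC factors bind. AOS lies at chr5:17099546-17099845 on the minus strand, LOX2 at chr3:16524995-16525294 and AOC2 at chr3:9406419-9406718 on the plus strand, in the same assembly.
AOS: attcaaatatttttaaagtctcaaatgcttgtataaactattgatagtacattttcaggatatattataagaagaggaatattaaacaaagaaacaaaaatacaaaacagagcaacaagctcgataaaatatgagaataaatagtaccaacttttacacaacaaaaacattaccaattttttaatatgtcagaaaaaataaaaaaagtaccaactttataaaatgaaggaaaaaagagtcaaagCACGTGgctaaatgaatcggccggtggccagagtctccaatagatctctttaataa
LOX2: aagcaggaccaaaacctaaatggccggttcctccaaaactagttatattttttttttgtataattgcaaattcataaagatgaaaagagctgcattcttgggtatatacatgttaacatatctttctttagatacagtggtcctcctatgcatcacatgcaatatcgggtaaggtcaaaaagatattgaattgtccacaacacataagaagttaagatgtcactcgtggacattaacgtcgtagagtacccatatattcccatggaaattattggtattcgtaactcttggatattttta
AOC2: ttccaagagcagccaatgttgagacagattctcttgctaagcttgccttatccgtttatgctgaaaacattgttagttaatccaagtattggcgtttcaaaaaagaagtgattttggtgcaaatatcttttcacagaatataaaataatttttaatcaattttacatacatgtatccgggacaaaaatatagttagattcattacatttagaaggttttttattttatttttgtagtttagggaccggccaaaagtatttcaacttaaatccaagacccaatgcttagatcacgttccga
The AOS window holds 1 CACGTG and the LOX2 and AOC2 windows none. Of all windows, 2107 held it (7.68%).

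Flowering in *Arabidopsis* is held back by MADS-box repressors such as FLC and FLM and set off by the integrators FT and SOC1. Of 32 tested flowering genes none was higher in L1 and 4 were lower (median -0.09), beside 0.685% and 1.29% over all tested genes. With the pool letter as a block 1 was higher. FLM had 1.66, 1.56, 1.36 and 1.32 CPM in L1 and 18.3, 14.8, 22.4 and 8.87 CPM in L2. The L1 pools lay within or just below the C24 range (1.49 to 2.50 CPM), and all but 1 L2 pool lay above the Ler range (4.39 to 9.91 CPM). The log2 difference was -3.45 ± 0.27 (edgeR adjusted p = 0.000455). The F1 pools of C24 × Ler, grown in batch 1, had 18.0 and 21.0 CPM.

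SOC1, which promotes flowering, had 18.9, 12.6, 14.4 and 13.6 CPM in L1 and 54.9, 27.8, 54.8 and 39.5 CPM in L2. All L1 pools were lower (-1.57 ± 0.22, edgeR adjusted p = 0.00816) and lay within the C24 range (9.44 to 22.0 CPM). The call was lost without line L1-1, L1-2 or L2-2 (edgeR adjusted p up to 0.136). SPL5, a promoter of the transition, had 3 to 3.66 CPM in L1 and 4.34 to 5.37 CPM in L2 (-0.57 ± 0.10, edgeR adjusted p = 0.0270). AP1, which specifies floral meristems, had 0.672 to 1.28 CPM in L1 and 1.55 to 3.16 CPM in L2 (-1.38 ± 0.28, edgeR adjusted p = 0.0454). Both were lost without L1-1 B, L1-2 A, L2-1 A, L2-1 B or L2-2 B, SPL5 also without L1-2 B and AP1 without L1-1 A (SPL5 -0.57 to -0.52, edgeR adjusted p = 0.0580 to 0.0836; AP1 -1.49 to -1.21, edgeR adjusted p = 0.0524 to 0.137). Both were also lost with 1 term per line, with the pools of each line summed and without any 1 line. Over all alternatives edgeR adjusted p reached 0.256 for SPL5 and 0.344 for AP1.

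FLC, the repressor that vernalization silences, had 52.5 to 67.2 CPM in L1, 44.9 and 47.7 CPM in L2-1, and 15.1 and 16.0 CPM in L2-2. It was not called between L1 and L2 (0.99 ± 0.37, edgeR adjusted p = 0.278) but L2-1 was above L2-2 (1.58, edgeR adjusted p = 0.00552). FT had 0.579 to 0.932 CPM in L1 and 0.876 to 1.32 CPM in L2 (edgeR adjusted p = 0.341), and FRI 11.7 to 12.6 and 8.86 to 11.7 CPM (edgeR adjusted p = 0.427). Flower organ markers were lower in L1 in 8 of 8 cases by difference, with 1 call, for SEP1 at 1.07 to 1.64 CPM in L1 and 2.53 to 2.76 CPM in L2 (-1.05 ± 0.15, edgeR adjusted p = 0.00741, and up to 0.129 without line L1-1, L2-1 or L2-2). Their sum ranged from 22.0 to 35.2 CPM in L1 and 29.2 to 42.2 CPM in L2, and none was at 0. Over all tested genes 15050 of 29208 had a positive difference and 1.29% were called lower. The part of developmental stage in the flowering result was not tested.

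**Figure D4:**
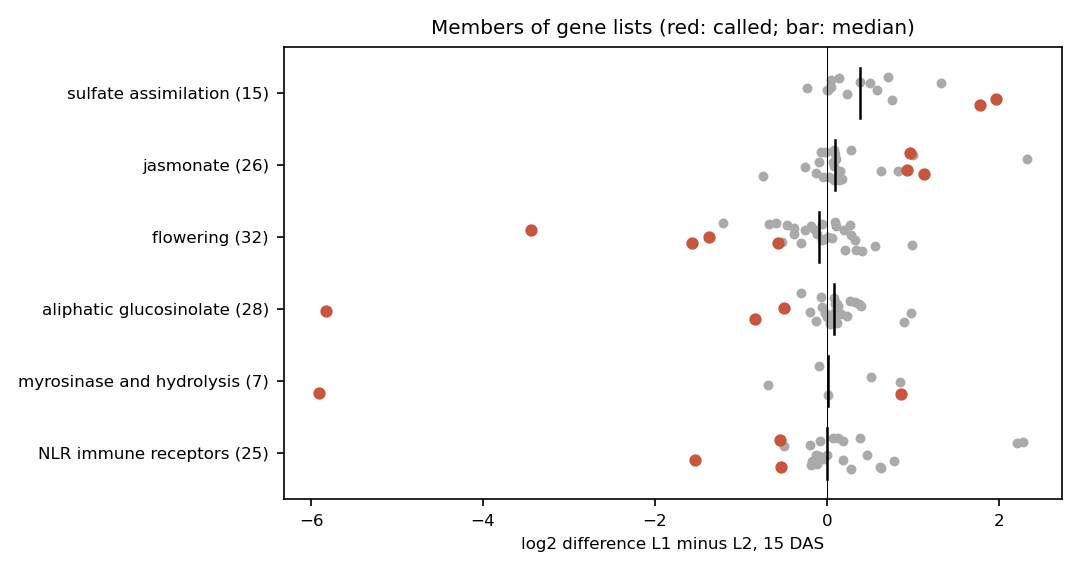
Log2 difference L1 minus L2 at 15 DAS for each tested member of 6 gene lists, with called members in red and the median as a bar. The sulfate list lies highest with a median of 0.38, and TGG2 at -5.91 and AOP3 at -5.83 lie far below the other members of their lists.

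Immune receptors of the NLR class detect pathogen proteins and often stand in clusters of near-identical genes. Of 25 tested NLR genes none was higher and 3 were lower in L1 (median 0.002), beside 0.685% and 1.29% over all tested genes. With the pool letter as a block 1 was higher. SNC1, in the RPP5 cluster of chromosome 4, had 38.2, 51.5, 41.7 and 47.5 CPM in L1 and 104, 157, 127 and 131 CPM in L2. The L1 pools were all lower (-1.53 ± 0.14, edgeR adjusted p = 0.000838) and mostly within the Ler range (38.5 to 51.9 CPM), while the left-out Ler pools A and B of batch 1 had 90.8 and 89.2 CPM. Its cluster mates RPP5 and RPP4 had differences of -0.55 ± 0.08 and -0.53 ± 0.09 (edgeR adjusted p = 0.0118 and 0.0211). The RPP4 call was lost without L1-1 A, L1-2 A, L1-2 B, L2-1 B, L2-2 A or L2-2 B (-0.53 to -0.49, edgeR adjusted p = 0.0524 to 0.0769), and that of RPP5 without line L1-1, L1-2 or L2-2 (edgeR adjusted p up to 0.151). Reads of these 3 copies cannot be assigned with certainty.

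CSA1 and DAR4, a receptor pair encoded side by side on chromosome 5, split the L2 lines. CSA1 had 89.95, 100.1, 91.6 and 105 CPM in L1, 45.8 and 30.7 CPM in L2-1 and 3.26 and 3.6 CPM in L2-2. L2-2 was at the Ler level (2.97 to 3.81 CPM), L1 near that of C24 (81.9 to 97.5 CPM) and L2-1 between them. The left-out Ler pools A and B of batch 1 had 14.3 and 9.91 CPM. With both L2 lines as replicates the difference did not pass (2.22 ± 0.77, edgeR adjusted p = 0.237), while L2-1 was above L2-2 by 3.48 (edgeR adjusted p = 0.00109). DAR4 had 80.9 to 87.8 CPM in L1, 26.2 to 36.5 CPM in L2-1 and 2.92 to 3.49 CPM in L2-2 (edgeR adjusted p = 0.198).

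Salicylic acid genes gave no call among 26 tested (median 0.15). PR1, a marker of that pathway, had 1255, 139, 1905 and 105 CPM in L1 and 139.8, 39.4, 97.7 and 453 CPM in L2. The pools overlapped and the A pools of L1 were far above its B pools (2.23 ± 1.03, edgeR adjusted p = 0.385). ICS1, which makes its precursor, had 18.3 to 27.7 and 12.9 to 21.5 CPM (edgeR adjusted p = 0.276). No call was made among 35 photosynthesis, 25 clock, 26 leaf size, 17 cell wall expansion, 18 shade and PIF, 12 indolic glucosinolate, 22 gibberellin and brassinosteroid, 23 flavonoid, 17 cold and drought, 12 ethylene, 9 senescence or 15 DNA methylation genes. Medians of these lists lay between -0.36 for senescence and 0.10 for flavonoids. Of all tested genes 1.98% were called.

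A single gene was called in each of the auxin, cell cycle and heat lists, of 25, 31 and 12 tested genes. These called genes were named here after their values were seen. The share called over all tested genes was 1.98%. SAUR24, a member of the small auxin up RNA (SAUR) gene family, had 0.637 to 0.812 CPM in L1 and 1.60 to 3.98 CPM in L2 (-1.80 ± 0.28, edgeR adjusted p = 0.0127, and 0.0504 without L1-1 A). Its call was also lost in the fit over all 36 libraries, with the pools of each line summed and without line L1-1 or L1-2 (edgeR adjusted p up to 0.185). CYCD3;2, a D-type cyclin, had 24.6 to 36.2 and 44.6 to 50.2 CPM (-0.67 ± 0.14, edgeR adjusted p = 0.0496). It was lost without any 1 library other than L1-1 B (edgeR adjusted p = 0.0548 to 0.122). HSP18.2, a small heat shock protein, had 2.81 to 3.46 and 1.80 to 2.27 CPM (0.58 ± 0.11, edgeR adjusted p = 0.0360). It was lost without any 1 library other than L2-1 A (edgeR adjusted p = 0.0697 to 0.120). Of the genes followed for growth, CYCD3;1 differed by -0.06, the receptor kinase gene ER by -0.05, the auxin synthesis gene YUC8 by 0.08, the clock gene CCA1 by 0.13 and PIF4 by -0.31, with edgeR adjusted p = 0.831 to 0.936. PIF4, a factor of shade growth, had 57.8 to 77.3 CPM in the 4 A pools and 15.5 to 22.3 CPM in the 4 B pools of both sets of lines.

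Some called genes outside the lists have well known functions and were chosen after their values were seen. MYC3, a factor of jasmonate signalling and glucosinolate synthesis, had 107 to 125 CPM in L1 and 52.9 to 62.1 CPM in L2 (0.98 ± 0.08, edgeR adjusted p = 0.000466). BT1, a BTB and TAZ domain protein, had 34.1, 91.2, 48.6 and 66.6 CPM in L1 and 215 to 277 CPM in L2 (-2.06 ± 0.27, edgeR adjusted p = 0.00560). SPL2, of the same family as SPL5, had 10.7 to 15.4 and 26.3 to 37.8 CPM (-1.31 ± 0.15, edgeR adjusted p = 0.00251). FUM2, the cytosolic fumarase that forms the leaf fumarate store, had 52.0 to 64.1 and 16.5 to 26.7 CPM (1.45 ± 0.16, edgeR adjusted p = 0.00251). HEI10, which promotes meiotic crossovers, had 48.3 to 51.0 and 25.9 to 33.9 CPM (0.80 ± 0.09, edgeR adjusted p = 0.00264). MRD1 is annotated from base 19963047 of chromosome 1 and HEI10 from base 19963267. The positions of MRD1 between the parents were 0.86, 0.89, 0.40 and 0.51 in L1-1, L1-2, L2-1 and L2-2. Those of HEI10 were 0.85, 0.89, 0.40 and 0.50, and reads of this pair cannot be assigned with certainty. For FUM2 and SPL2 the L1 pools lay near the Ler level, and for HEI10 near the C24 level.

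The same lines were measured at 28 DAS in expanded leaves of other plants, after transfer to soil, so age, tissue and growth place changed together. Of 26595 tested genes 289 were higher (1.09%) and 339 lower (1.27%) in L1, 628 in all (2.36%) by the same test. That count was 1164 with the pool letter as a block. It was 378 without L1-1 A, 320 without L1-1 B, 328 without L1-2 A and 381 without L2-2 B. Of the 528 genes called at 15 DAS and tested at 28 DAS, 479 had the same sign (90.7%). Of these 528, 199 were called in the same direction, which was 37.7% of them and 31.7% of the 628, and 1 was called in the opposite direction. Among all genes tested at both ages 2.32% were called at 28 DAS. The plot of differences at both ages shows the shared direction.

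**Figure D5:**
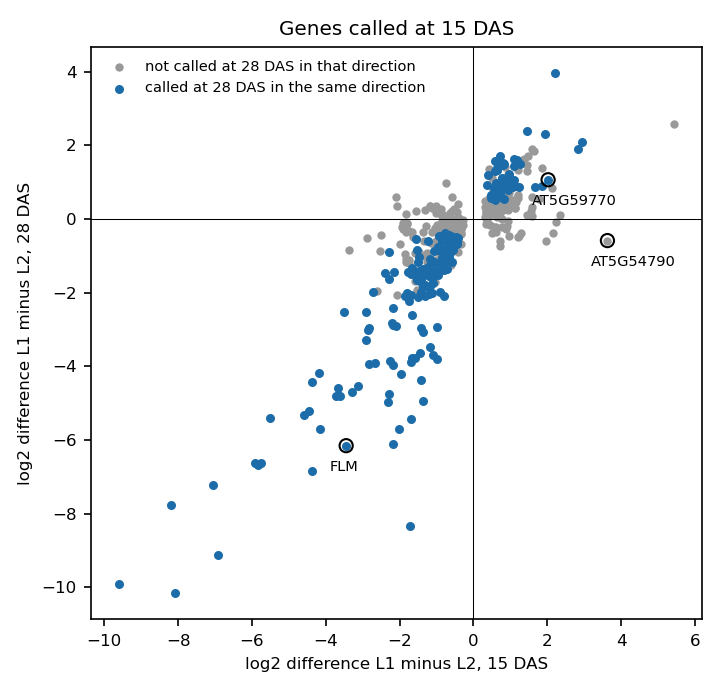
Log2 difference L1 minus L2 at 15 DAS (x axis) against 28 DAS (y axis) for the 528 genes called at 15 DAS and tested at both ages. FLM, AT5G54790 and AT5G59770 are circled, and AT5G54790 lies at 3.63 at 15 DAS and -0.59 at 28 DAS.

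The difference itself changed between ages in 174 of 29487 genes (0.590%), by edgeR's interaction test. FLM went from -3.45 to -6.16, a change of -2.70 (edgeR adjusted p = 0.00215). At 28 DAS it had 0.118 to 0.333 CPM in L1 and 15.8 to 19.9 CPM in L2. AT5G54790 went from 3.63 to -0.59, a change of -4.23 (edgeR adjusted p = 0.000363), with 0.228 to 0.629 CPM in L1 and 0.439 to 0.940 CPM in L2 at 28 DAS. AT5G59770 kept its sign, from 2.03 to 1.06 (change -0.96, edgeR adjusted p = 0.0151). TGG2 had -6.62 and AOP3 -6.68 at 28 DAS, and both were called again (edgeR adjusted p = 3.34e-05 and 0.000645). SNC1 had -1.46 (edgeR adjusted p = 0.00131). LSU2 and SDI1 had 0.54 and -0.60 there (edgeR adjusted p = 0.188 and 0.529), and their change between ages did not pass (edgeR adjusted p = 0.113 and 0.0915).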

How the data were processed

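The deposited table holds the authors' raw read counts per gene (33321 gene rows, of which 32565 were found in RefSeq's TAIR10.1 annotation). Per the submitters' processing notes, FastQC and the build TAIR10 were used. Which aligner, counter and strand setting were used is not stated there, so overlapping and antisense genes are uncertain.

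Counts of the 8 libraries were tested with edgeR 4.0.16 (limma 3.58.1, R 4.3.3): filterByExpr, TMM scaling, and a quasi-likelihood fit with L1 or L2 as the only term (6 residual degrees of freedom), so that spread between lines and between pools both entered the error. Tests were two-sided and corrected over every tested gene by the method of Benjamini and Hochberg, with calls below 0.05. The standard error was the log2 difference divided by the square root of F. The biological coefficient of variation was 0.173. The code was tested on simulated data. DESeq2 1.42.0 was an alternative, with other scalings, filters, terms and left-out libraries or lines.

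Line pairs were compared in a fit with 1 term per line, 28 DAS in a separate fit of the same form as at 15 DAS, and the change with age as an interaction over the libraries of both ages. Parents were compared over all 36 libraries at 15 DAS, as 6 C24 pools (A and B of batch 1, C and D of batch 2 and 2 of the smallest seedlings, the 5 smallest of 50) against 4 Ler pools (C and D of batch 2 and 2 of the smallest seedlings). Ler pools A and B of batch 1 were left out because they carry transcripts that these 4 lack. The labels do not say that a pool letter marks a shared day or tray, but the A minus B differences of each 2 of the 4 lines correlated over genes (0.122 to 0.736), so pools of 1 letter deviated together, and a fit with the letter as a block is given where it changes a call or a count. Parental levels began below 0.25 and above 0.75 between the parents, for genes with a parental log2 difference of at least 2 and at least 1 CPM in the higher parent.

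Named genes were the 10 largest differences in each direction among called genes with at least 1 CPM and no overlap, up to 4 called members of each list with at least 2 called, and a fixed set of genes always reported. Members and lists were chosen with earlier results of these data known.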

Additional observations from a re-analysis of the deposited data

Results flagged for a closer look

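Among 108 sets of 4 pools tested, 6 held a pool far from the others, and chance alone marks about 1 in 20 such sets. These were AT5G28145 in L1-2 A at 0.0225 CPM with no count in the other L1 pools, and AT5G28350 in L1-1 A at 0.255 CPM, lowest of the L1 pools. FRI in L1-1 A at 12.6 CPM and MYB28 in L1-1 B at 250.5 CPM were the highest of L1. FT in L2-2 A at 1.32 CPM and SEP1 in L2-1 A at 2.76 CPM were the highest of L2. For 3 named genes the L1 against L2 difference changed between 15 and 28 DAS in edgeR's interaction test, by -0.96 for AT5G59770, by -4.23 for AT5G54790 and by -2.70 for FLM on the log2 scale.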

How the results depend on the processing

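Of the 200 higher and 378 lower genes at 15 DAS, DESeq2 gave 591 and 799, a fit over all 36 libraries 606 and 725, and summed pools of each line 99 and 198. Leaving out line L1-1 gave 34 and 100, L1-2 35 and 94, L2-1 285 and 326, and L2-2 111 and 158. Without single libraries the counts were 86 to 181 higher and 229 to 314 lower. The replicate letter as a replicate block gave 347 higher and 548 lower, with 577 of the 578 genes shared. Among the named genes the replicate block ended the call of SDI1 and no other. DESeq2 shared 576 genes and summed pools 222. Leaving out at least 1 of the 4 lines also ended the calls of ARGAH2, AT1G52905, AT5G60250, RPP4, CYCD3;2 and HSP18.2.

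Pair counts (8 and 94) were 16 for L1 with no filter on low counts, 15 with the replicate block and 57 with all 36 libraries, and 262 for L2 with all 36 libraries. They were 1 to 5 and 26 to 91 without single libraries. At 28 DAS the count was 1164 with the replicate block and 320 to 524 without single libraries, and 136 to 184 calls were shared with 15 DAS (199 in the full fit). DESeq2 found 455 changes with age. The genes with L1 at the C24 and L2 at the Ler level, and the reverse (3 and 12), were 8 and 3 with batch 1 parents, 0 and 2 at a parental log2 difference of at least 4, and 6 and 19 on the log2 scale. The alternatives of the pair counts, those of the calls shared with 15 DAS and the replicate block at 28 DAS were chosen after seeing the data. In all these cases the cause was not tested.

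The calls of NMNAT, AT5G54780, AT5G59770, AT3G16750, AT5G54790, AT2G15160, TGG2, AOP3, AT5G28350, FLM and SNC1 held under each of 20 alternatives. Differences near 0 changed sign: YUC8 was -0.042 to 0.35 without single libraries (below 0 without L1-1 B, L2-1 A or L2-1 B), -0.13 without line L1-1 and -0.22 without line L2-1. ER was 0.014 without line L2-1 and -0.11 to 0.013 without single libraries (above 0 without L1-2 A). CYCD3;1 was -0.11 to 0.0043 (above 0 without L1-2 A) and PIF4 -0.69 to 0.023 (above 0 without L2-1 A).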
